A study of Mus musculus with 16 samples.

Results

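This is an account of bone marrow-derived macrophages after 12 and 24 h with RANKL and without α-ketoglutarate, set against the same kind of culture at 0 h. The labels describe cultures from male C57BL/6 mice aged 5 weeks, grown with M-CSF. The members are 4 of the 16 arrays of the series, chosen by their labels. The 2 arrays with M-CSF, RANKL and the vehicle DW at 12 and 24 h, both labelled as the intermediate phase, form one group, and 2 arrays with M-CSF and DW but no RANKL at 0 h form the other. The other arrays are DW cultures with RANKL at 3, 6, 48 and 72 h, and cultures given RANKL and 1 mM dimethyl α-ketoglutarate (αKG) for 0.5 to 72 h. No array holds 12 or 24 h without RANKL, so the effect of RANKL and that of the hours themselves cannot be told apart. Whether any 2 arrays stem from different cultures or mice is not labelled. The p-values rest on the spread within 8 groups of 2 arrays, over all 16 arrays and thus also those with αKG. Only the 0 h group holds 2 arrays of the same time, so that spread includes changes between times. The rest of it may be technical.

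RANKL is the cytokine that turns macrophages grown with M-CSF into osteoclasts, the cells that resorb bone. It binds RANK, which signals through TRAF adaptors to both arms of the NF-κB pathway, to MAP kinases and later to NFATc1, the transcription factor that switches on the resorption and fusion genes. M-CSF, present throughout, acts through its receptor and ERK to keep the precursors alive and dividing.

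Values are log2 expression values as deposited, and a difference of 1 is a doubling. The median over all features lay between 4.85 and 4.89 on the 4 arrays. Macrophage markers lay well above those medians on all 4: Csf1r, the M-CSF receptor, stood at 11.71 and 11.22 at 12 and 24 h, against 11.48 and 11.50 at 0 h, and Cd68, a lysosomal glycoprotein, at 12.51 and 12.62, against 12.53 and 12.57. Not all were as steady. Mertk stood at 9.01 and 7.30, against 8.43 and 8.45, and Fcgr1 at 11.07 and 10.45, against 11.14 and 11.13. Itgam stood at 10.51 and 10.71, against 10.89 and 10.99, and Adgre1 at 11.45 and 10.91, against 11.02 and 11.01. Lyz2 stood at 12.88 and 12.83, against 12.73 and 12.72, and Cd14 at 9.97 and 10.19, against 9.67 and 9.74. The 12 and 24 h arrays were far less alike than the 0 h arrays. The difference between 24 and 12 h had an SD of 0.529 over 15526 genes, with 1041 genes at least 2-fold apart, against 0.196 and 9 genes for the pair at 0 h. A pooled test of 12 and 24 h against 0 h therefore favours genes that stood alike at both times. Genes that differ between the times are given below as values of single arrays, without a test.

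In the pooled comparison, genes of NF-κB signalling, SLAM receptors, inflammatory mediators and antigen presentation were among the 70 genes that rose at 12 to 24 h, and Slco2b1, Ccnd2, Rasgrp3 and Snx24 were among the 51 that fell. These 121 genes were 0.779% of the 15526 tested with limma at an adjusted p under 0.05, and the higher and lower genes were 0.451% and 0.328%. The median absolute difference between the 24 and 12 h arrays was 0.222 in the 121 genes and 0.243 over all genes, and 4 of the 121 were at least 2-fold apart between the times. The count rested on both 0 h arrays: leaving out the first gave 7 genes and the second 4, while dropping 12 h gave 67 and dropping 24 h gave 27. Nfkb2, Slamf6, Slc13a3 and Snx24 passed in all 4 of those fits. Taken singly, the 12 h array had 327 genes (2.11%) at least 2-fold above the 0 h mean and 277 (1.78%) at least 2-fold below it. The 24 h array had 237 (1.53%) above and 214 (1.38%) below. Of these, 84 were higher at both times, 48 of which passed the test, and 50 were lower at both, 25 of which passed. No gene passed when only the 4 arrays were fitted (1194 at an unadjusted p under 0.05), where the spread rests on fewer arrays.

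**Figure D1:**
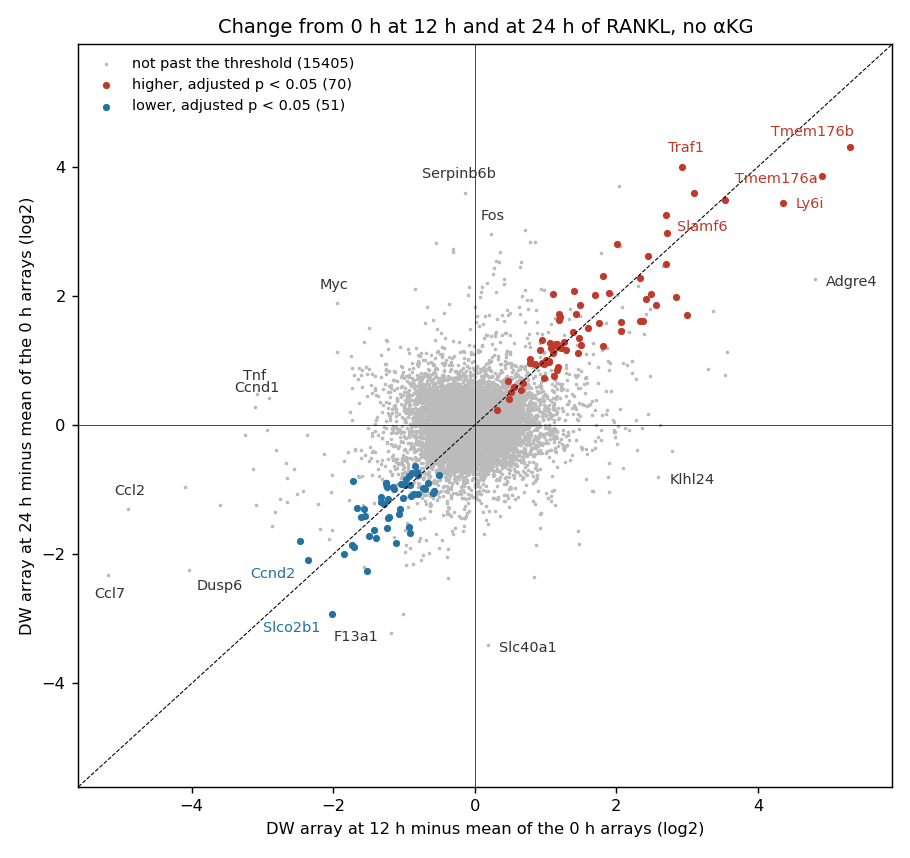
Each point is a gene, placed by its difference from the mean of the 0 h arrays at 12 h (x axis) and at 24 h (y axis), both in log2 units, and the dashed line marks equal differences. The 70 higher and 51 lower genes lie along that line, while Myc, Ccnd1, Ccl2, Klhl24 and Slc40a1 lie far from it and did not pass the test.

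Tmem176b and Tmem176a, which encode related membrane proteins of intracellular vesicles, had the highest fold changes among genes that passed. Tmem176b stood at 11.14 and 10.13 at 12 and 24 h, against 5.91 and 5.75 at 0 h, a difference of 4.81 ± 0.83 (SE; 28.0-fold; limma adjusted p = 0.0275). Tmem176a stood at 10.49 and 9.44, against 5.73 and 5.44 (4.38 ± 0.81; 20.8-fold; adjusted p = 0.037). Both had already reached 9.03 and 8.12 at 3 h. The genes lie head to head on chromosome 6, so their values are not independent evidence of each other, and their transcripts could share probes.

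Of 29 RANK and NF-κB genes tested, 4 rose and 0 fell, with a list median difference of 0.52 against -0.01 over all genes. An unadjusted limma p under 0.05 was reached by 14 of the 29, all higher, and by 1389 of all 15526 genes in either direction. The 4 that passed were Traf1, an adaptor of TNF-family receptors, Birc3, a ubiquitin ligase bound by the TRAF adaptors, Nfkb2, the p100 precursor of the non-canonical arm, and Relb, its partner. Nfkb2 stood at 9.17 and 9.11 at 12 and 24 h, against 6.76 and 6.92 at 0 h (2.30 ± 0.19; 4.93-fold; adjusted p = 0.00119). Traf1 stood at 8.74 and 9.80, against 5.60 and 6.01 (3.47 ± 0.41; 11.1-fold; adjusted p = 0.005). Birc3 stood at 9.09 and 8.88, against 6.32 and 6.45 (2.6 ± 0.30; adjusted p = 0.00363). In all 3 genes the lower of the 12 and 24 h values lay over 2 log2 units above the higher 0 h value. Relb differed by 1.37 ± 0.23 (adjusted p = 0.0259). Nfkb2 was high from 3 h onward, with 9.29 and 9.25 in the DW arrays at 3 and 6 h, and 8.99 and 8.92 at 48 and 72 h. RANK itself, encoded by Tnfrsf11a, stood at 7.80 at 12 h and 9.59 at 24 h, against 8.71 and 8.74 at 0 h, so the 2 times lay on either side of the 0 h arrays and the mean difference was -0.03 (adjusted p = 0.996).

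RefSeq promoter windows on GRCm38.p6, 300 bases long with 250 before and 50 after each start, were found for 50 of the 70 higher genes and 39 of the 51 lower genes. One form of the κB element bound by NF-κB, GGG, any 2 bases and TTTCC, was searched on both strands. It was present in a window of 6 of the 50 higher genes (12%), namely B2m, Marco, Nfkb2, Slamf8, Tmem176a and Tmem176b, in 0 of the 39 lower genes and in 1.98% of all 12077 tested genes with a window. A narrower form with A as the fourth base, contained in the first, was present in 3 of the 50 (6.0%), 0 of the 39 and 0.555% of all. A match describes these letters only and is not evidence of binding, and the genes were chosen with their values known. The stretches below are shown because they hold the match within the bases before the start; the capitals mark it. The first runs between the facing starts of Tmem176b and Tmem176a, chr6:48841375-48841482 on the plus strand, so that 1 match counts for both genes. The others are the 250 bases before a start of Nfkb2 (chr19:46304487-46304736, plus strand), Marco (chr1:120505025-120505274, minus strand) and B2m (chr2:122147437-122147686, plus strand).
Tmem176b to Tmem176a: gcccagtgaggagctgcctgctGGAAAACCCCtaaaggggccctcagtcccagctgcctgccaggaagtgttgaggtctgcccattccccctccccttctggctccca
Nfkb2: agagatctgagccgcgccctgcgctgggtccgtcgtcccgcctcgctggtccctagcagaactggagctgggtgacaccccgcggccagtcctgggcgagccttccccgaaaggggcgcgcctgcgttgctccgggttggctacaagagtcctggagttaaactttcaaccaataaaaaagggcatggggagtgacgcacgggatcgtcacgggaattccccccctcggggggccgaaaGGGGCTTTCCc
Marco: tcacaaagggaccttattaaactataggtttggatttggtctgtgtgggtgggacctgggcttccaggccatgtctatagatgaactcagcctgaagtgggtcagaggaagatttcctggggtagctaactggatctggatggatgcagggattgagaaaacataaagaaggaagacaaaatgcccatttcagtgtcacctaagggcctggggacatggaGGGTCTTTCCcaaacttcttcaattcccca
B2m: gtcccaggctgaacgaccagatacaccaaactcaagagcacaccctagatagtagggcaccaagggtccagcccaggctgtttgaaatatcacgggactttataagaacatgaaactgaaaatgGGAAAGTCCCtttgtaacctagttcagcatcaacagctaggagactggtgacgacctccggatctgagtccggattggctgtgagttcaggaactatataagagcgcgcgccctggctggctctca
For comparison, the AP-1 letters TGANTCA were present in 14.0% of the higher genes, 10.3% of the lower genes and 6.88% of all. The core of the interferon response element, GAAA, any 2 bases and GAAA, was present in 10.0% of the higher genes, 2.56% of the lower genes and 3.62% of all.

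**Figure D2:**
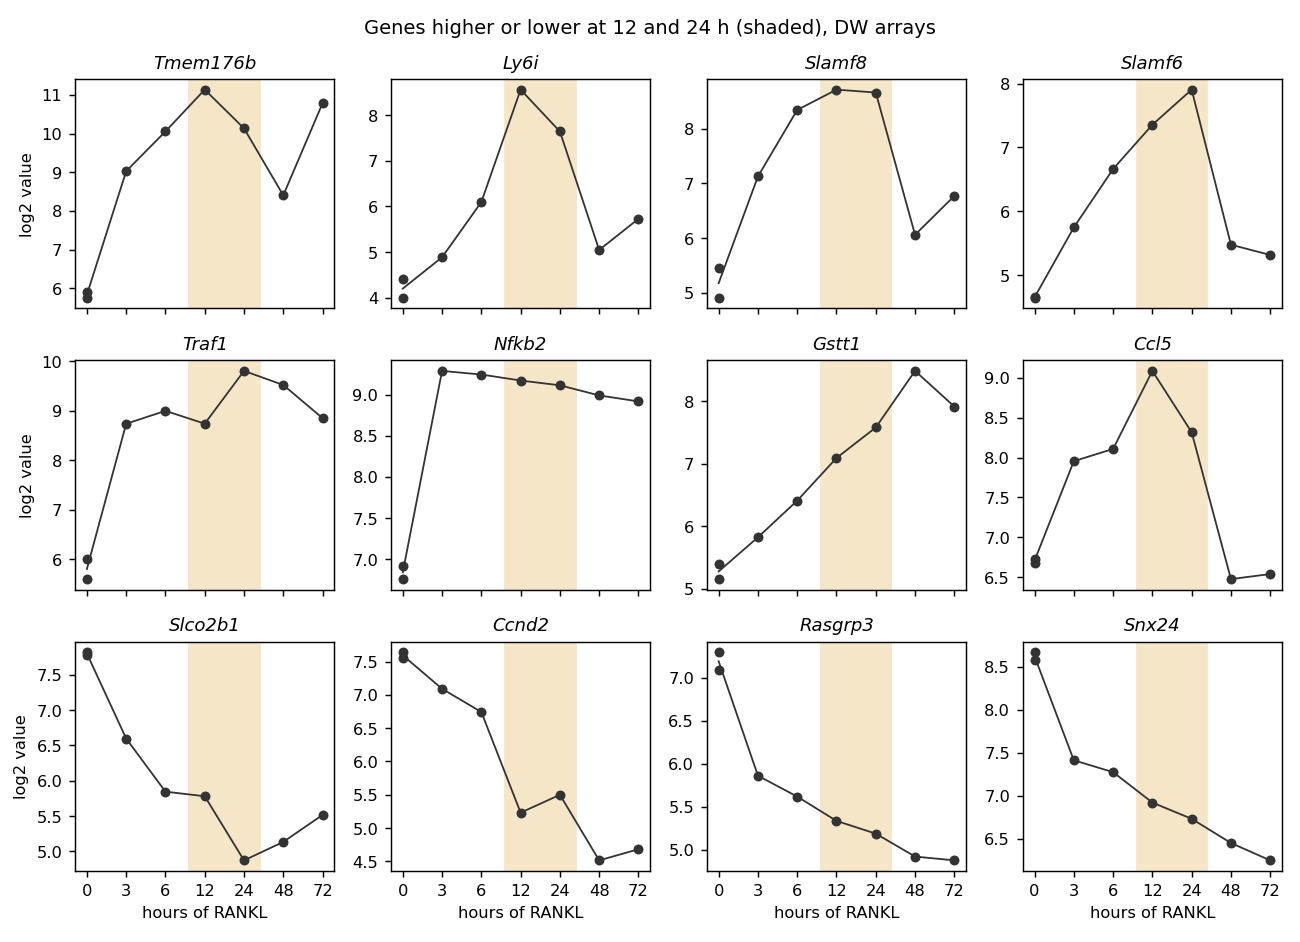
Log2 values of 8 higher genes and 4 lower genes (each panel 1 gene, y axis) in the DW arrays by hours of RANKL (x axis, evenly spaced), with both 0 h arrays drawn and a line through their mean. Nfkb2 is high from 3 h onward, Ly6i, Slamf8, Slamf6 and Ccl5 are highest at 12 or 24 h, and Gstt1 is still higher at 48 h.

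A few SLAM and Ly6 genes rose. SLAM receptors bind each other between immune cells, and 2 of 11 genes of these receptors and their adaptors passed, both higher, with a list median of 0.16. Slamf8, a member known in myeloid cells, stood at 8.71 and 8.66 at 12 and 24 h, against 5.45 and 4.91 at 0 h (3.51 ± 0.48; 11.4-fold; adjusted p = 0.00894). Slamf6 stood at 7.36 and 7.91, against 4.66 and 4.64 (2.98 ± 0.28; 7.9-fold; adjusted p = 0.00147). Slamf6 has several features that differ in response: their mean moved by 1.69, and it still passed (adjusted p = 0.00693). Slamf9 (-0.83 ± 0.20; adjusted p = 0.116) and Cd244a (-1.02 ± 0.21; adjusted p = 0.0561) were lower without passing. Ly6i, a GPI-anchored protein of monocytes, was the 1 of 9 Ly6 genes that passed (list median 0.04), at 8.56 and 7.64, against 4.0 and 4.41 (3.90 ± 0.49; 14.9-fold; adjusted p = 0.00702), and close paralogs may share its probes.

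Of 33 inflammatory mediators and other NF-κB target genes, 5 rose and 0 fell, with a list median of 0.39. Saa3, an acute-phase apolipoprotein, stood at 7.92 and 7.21 at 12 and 24 h, against 5.51 and 5.21 at 0 h (2.21 ± 0.33; adjusted p = 0.014). Cfb, complement factor B, rose by 2.42 ± 0.33 and Sod2, the mitochondrial superoxide dismutase, by 1.01 ± 0.18. Icam1 and Vcam1, ligands of leukocyte integrins, rose by 1.97 ± 0.35 and 1.51 ± 0.28. Not every mediator was higher: Tnf stood at 6.27 at 12 h and 9.82 at 24 h, against 9.38 and 9.30 at 0 h.

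Chemokine genes went both ways. Of 20 tested, 3 rose and 0 passed in the other direction, while the list median was -0.32. Ccl5, a T cell and monocyte attractant, stood at 9.09 and 8.32 at 12 and 24 h, against 6.73 and 6.68 at 0 h (2.0 ± 0.22; adjusted p = 0.00363). Cxcl16, a membrane-bound chemokine and scavenger receptor, stood at 10.73 and 10.56, against 8.94 and 9.02 (1.67 ± 0.25; adjusted p = 0.0137). Cxcl9, an interferon-induced chemokine, differed by 2.35 ± 0.37 (adjusted p = 0.016), with 7.51 at 12 h and 6.22 at 24 h against 4.5 and 4.53 at 0 h. The monocyte attractants Ccl2 and Ccl7 were far below 0 h at 12 h and less so at 24 h. Ccl2 stood at 6.64 and 10.23, against 11.60 and 11.47, and Ccl7 at 6.04 and 8.90, against 11.28 and 11.16. Their mean differences of -3.10 ± 1.77 and -3.75 ± 1.69 did not pass. The 2 times were over 2 log2 units apart, and the standard error also draws on the other groups. With αKG at 12 and 24 h, Ccl2 stood at 6.28 and 11.08 and Ccl7 at 5.28 and 9.71. With DW at 48 and 72 h, Ccl2 stood at 9.08 and 5.66 and Ccl7 at 8.04 and 4.88.

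Of 17 genes of MHC class I processing, 3 rose and 0 fell. H2-K1, a class I heavy chain, stood at 11.04 and 10.77 at 12 and 24 h, against 9.78 and 9.94 at 0 h (1.04 ± 0.13; adjusted p = 0.00727). B2m, the shared light chain, stood at 12.98 and 12.90, against 12.65 and 12.68, so a difference of 0.28 ± 0.05 passed (adjusted p = 0.0462). This small difference did not pass under most of the alternatives run. Tapbp, the peptide-loading factor tapasin, rose by 0.85 ± 0.17 (adjusted p = 0.0459), but its features differed: their mean moved by 0.55 (adjusted p = 0.299). Class I heavy chain genes are near-identical in places and could share probes.

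Of 14 genes of itaconate synthesis, dicarboxylate and organic anion transport, 2 rose and 1, Slco2b1, fell. Slc13a3, a sodium-coupled carrier of dicarboxylates, stood at 8.48 and 8.66 at 12 and 24 h, against 6.12 and 5.96 at 0 h (2.53 ± 0.22; 5.79-fold; adjusted p = 0.00119). Gstt1, Gstt2 and Gstt4, theta-class glutathione transferases, rose by 2.06 ± 0.32, 1.68 ± 0.29 and 1.14 ± 0.22, and their neighbour Ddt, D-dopachrome tautomerase, by 1.46 ± 0.23. These 4 genes lie close together on chromosome 10, with another tested gene between Ddt and Gstt1, and the transferases resemble each other enough that probes may be shared. In the order of tested genes along the chromosomes, 8 pairs of the 121 genes lay within 2 steps of each other, 14 genes in all, and both genes of each pair moved the same way. Beyond Tmem176a and Tmem176b these were Cxcl16 with Zmynd15 and, among lower genes, Cd300e with Cd300lf, Slco2b1 with Tpbgl, and Shisal2b with Rgs7bp. How often other genes form such pairs was not computed, and some pairs are close relatives that may share probes, so the counts are a description. Pltp, a phospholipid transfer protein, rose by 1.28 ± 0.18 and Fabp5, a fatty acid binding protein, by 1.44 ± 0.24. Gpr132, a G protein-coupled receptor, rose by 2.41 ± 0.27, and Rrad, a Ras-related GTPase, by 2.26 ± 0.30.

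Among the 51 lower genes that passed, Slco2b1, an organic anion transporter of macrophages, had the largest difference. It stood at 5.78 and 4.87 at 12 and 24 h, against 7.78 and 7.82 at 0 h (-2.47 ± 0.38; 0.18 of the 0 h level; adjusted p = 0.0144); the mean of its features moved by -1.36 (adjusted p = 0.0146). Of 31 monocyte and macrophage genes, 4 fell and 1 rose. Cd300e, an activating receptor of monocytes, fell by 1.89 ± 0.25, Cd163, the haemoglobin scavenger receptor, by 1.25 ± 0.20, and Cd93, a C-type lectin-like receptor, by 0.79 ± 0.12. Marco, a scavenger receptor for bacteria and particles, rose by 1.98 ± 0.27. Hmox1, the haem oxygenase, stood at 9.89 and 10.03 at 12 and 24 h, against 11.20 and 11.23 at 0 h (-1.26 ± 0.20; adjusted p = 0.0171).

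Ccnd2, which encodes cyclin D2, was the only 1 of 20 cyclin and inhibitor genes that passed, at 5.23 and 5.50 at 12 and 24 h, against 7.55 and 7.64 at 0 h (-2.23 ± 0.29; adjusted p = 0.00769). Rasgrp3, an exchange factor for Ras and Rap, stood at 5.33 and 5.19, against 7.08 and 7.30 (-1.93 ± 0.21; adjusted p = 0.00363). Rhoh, a GTPase of blood cells, fell by 1.08 ± 0.12 and Rhob by 1.47 ± 0.29. Vav3, a guanine nucleotide exchange factor that mouse osteoclasts need for resorption, fell by 1.34 ± 0.18. Cd34, on a list of 15 stem and progenitor genes with a median of -0.17, fell by 1.52 ± 0.21. Stat4, on the same list though not a marker of those cells alone, fell by 1.80 ± 0.30. Integrins Itga6 and Itga8, the receptors Tlr5 and Il17ra, the lipoxygenase Alox5, the hexokinase Hk3, the insulin signalling adaptor Irs2 and the transcription factors Tcf7l2, Mef2a and Epas1 fell by 0.78 to 2.13. Snx24, a sorting nexin, stood at 6.92 and 6.73, against 8.57 and 8.67 (-1.80 ± 0.17; adjusted p = 0.00147).

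Most osteoclast genes did not pass. Mmp14, a membrane-bound collagenase, was the 1 of 21 acid secretion and matrix breakdown genes that passed, at 8.48 and 8.98 at 12 and 24 h, against 5.45 and 5.31 at 0 h (3.35 ± 0.52; 10.2-fold; adjusted p = 0.0152). Of the 21, 7 had an unadjusted p under 0.05, all higher, and 8 were at least 2-fold higher at 24 h than at 12 h, while 0 were lower by as much. Mmp9, a gelatinase, stood at 7.47 and 9.13, against 5.38 and 5.49 (2.87 ± 0.59; adjusted p = 0.0573). Acp5, the tartrate-resistant phosphatase, stood at 7.56 and 8.73, against 6.61 and 6.64 (adjusted p = 0.192). Ctsk, the collagen-degrading cathepsin, stood at 6.33 and 7.38, against 5.72 and 5.45, and Atp6v0d2, a proton pump subunit, at 6.15 and 8.20, against 5.34 and 5.41. Dcstamp, a fusion gene, stood at 5.13 and 6.45, against 5.20 and 5.22, and Ocstamp, another, at 5.43 and 6.91, against 5.27 and 5.48. Both lay near their 0 h values at 12 h and above them at 24 h. Calcr, the calcitonin receptor, stood at 3.84 and 3.98, against 3.91 and 3.99. All 4 values are under 4.34, the minimum mean of a tested gene, and Calcr was tested because of its later values. By limma 0 of 23 osteoclast transcription factors, 0 of 13 repressors and 0 of 21 fusion genes passed, with 5, 2 and 5 at an unadjusted p under 0.05. Over all 15526 genes, 1389 had such a p. Nfatc1 stood at 8.79 and 8.29, against 8.25 and 8.24 (0.29 ± 0.27; adjusted p = 0.892). Id1 and Id2, repressors of the helix-loop-helix type, stood at 4.98 and 6.77 at 12 h and 5.29 and 8.06 at 24 h, against 7.0 to 7.10 for Id1 and 9.58 to 9.67 for Id2 at 0 h (adjusted p = 0.079 for Id1 and 0.0876 for Id2).

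**Figure D3:**
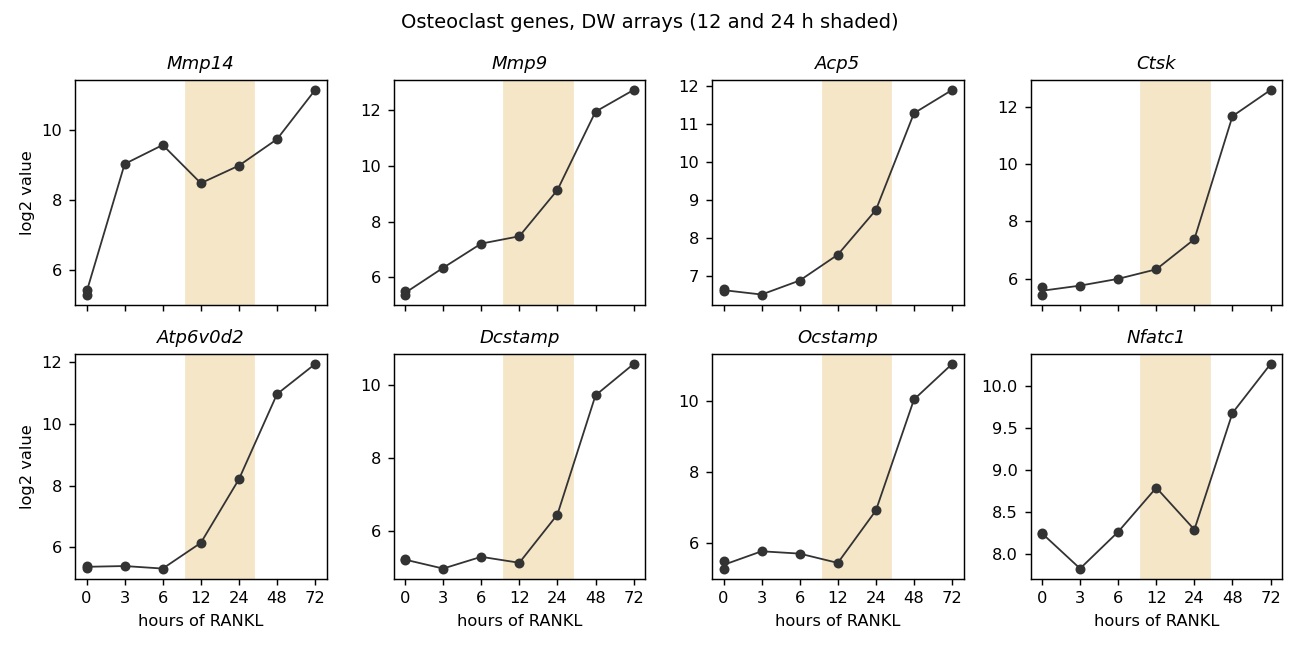
Log2 values (y axis) of 8 osteoclast genes in the DW arrays by hours of RANKL (x axis, evenly spaced), with both 0 h arrays drawn. Mmp14 is at 9.02 by 3 h, whereas Dcstamp and Ocstamp are near their 0 h values at 12 h and at 9.72 and 10.04 at 48 h.

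The same arrays were set against the other phases without αKG. No gene passed against 3 and 6 h (0% of 15526 genes by limma; 769 at an unadjusted p under 0.05). The smallest adjusted p was 0.218, for Cd300e, at 6.36 and 5.63 at 12 and 24 h, against 7.94 and 7.57 at 3 and 6 h. The 70 higher genes had medians over the 0 h mean of 0.90 and 1.24 in the arrays of 3 and 6 h, 1.28 and 1.33 in those of 12 and 24 h, and 1.06 and 1.05 in those of 48 and 72 h. For the 51 lower genes the medians were -0.60 and -0.88, then -1.15 and -1.14, then -1.45 and -1.43. The genes were chosen on 12, 24 and 0 h, so the values at those times are a description.

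Against 48 and 72 h, 220 genes passed (1.42% of those tested), 81 higher (0.522%) and 139 lower (0.895%) at 12 to 24 h. With array medians centred the split was 109 higher and 119 lower. Leaving out 48 h gave 1024 genes and leaving out 72 h gave 105, while dropping 12 h gave 50 and dropping 24 h gave 272. Of the resorption genes 12 of 21 were lower at 12 to 24 h than later. Ctsk differed by -5.27 ± 0.44 (adjusted p = 0.000744), at 6.33 and 7.38 at 12 and 24 h, against 11.67 and 12.58 at 48 and 72 h. Car2, carbonic anhydrase, differed by -5.42 ± 0.56 and Oscar, a costimulatory receptor, by -5.34 ± 0.93. Oscar lay below the brightness minimum of 4.34 on every DW array before 48 h and was tested because of its later values. Car2 lay below that minimum at 0, 6 and 12 h, at 4.69 at 24 h, and was likewise tested because of its later values. Genes of the tricarboxylic acid cycle (8 of 34) and of oxidative phosphorylation (5 of 43) were lower at 12 to 24 h than later, with differences of -1.07 to -0.45. Against 0 h 0 of either list passed by limma (1 and 0 at an unadjusted p under 0.05, against 1389 of all 15526 genes).

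The genes that were higher at 12 to 24 h than at 48 to 72 h were led by monocyte and granulocyte genes. Ly6c2, a marker of inflammatory monocytes, stood at 8.97 and 8.03 at 12 and 24 h, against 5.44 and 3.33 at 48 and 72 h (4.12 ± 0.56; adjusted p = 0.00425). Chil3, a chitinase-like secreted protein, differed by 3.77 ± 0.49. Of 17 neutrophil granule genes, 8 were higher, such as S100a8 (2.88 ± 0.29), Ngp (2.69 ± 0.35) and Elane (2.54 ± 0.45). The same 17 genes averaged 7.15 and 6.49 at 12 and 24 h, against 7.11 and 7.13 at 0 h, and 1 of them, Padi4, passed against 0 h (-1.57 ± 0.16; adjusted p = 0.00209). Fewer cells of a type and less RNA per cell cannot be told apart in such bulk samples, and the part of granulocytes in these differences was not tested. Ly6i, Slamf8, Slamf6, Saa3, Ifi205, Ccl5 and Marco passed both against 0 h and against 48 to 72 h. Ccl5, for example, stood at 6.47 and 6.54 at 48 and 72 h, close to the 6.73 and 6.68 at 0 h. Both contrasts use the 12 and 24 h arrays, so they are not independent of each other.

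The 12 and 24 h arrays differed most in growth genes. At 24 h, 625 genes (4.03%) were at least 2-fold above 12 h and 416 (2.68%) at least 2-fold below it, a description of single arrays with no replicate check. Myc, the transcription factor that drives ribosome production and growth, stood at 6.68 at 12 h and 10.51 at 24 h, against 8.63 and 8.62 at 0 h. Ccnd1, cyclin D1, stood at 7.71 and 11.09, against 10.84 and 10.78. Both genes were far below 0 h at 12 h and above it at 24 h. Of 33 ribosome biogenesis genes, 28 were at least 2-fold higher at 24 h than at 12 h, and the list median over 0 h was -0.82 at 12 h and 0.56 at 24 h. Gnl3, nucleostemin, stood at 6.78 and 9.26, against 8.50 and 8.47. Of 35 DNA replication genes, 22 were at least 2-fold higher at 24 h than at 12 h, with medians of -0.79 and 0.36. Mcm2, a subunit of the replicative helicase, stood at 7.89 and 9.59, against 9.24 and 9.22. For 31 mitosis genes the median was -0.52 at 12 h and -0.54 at 24 h.

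**Figure D4:**
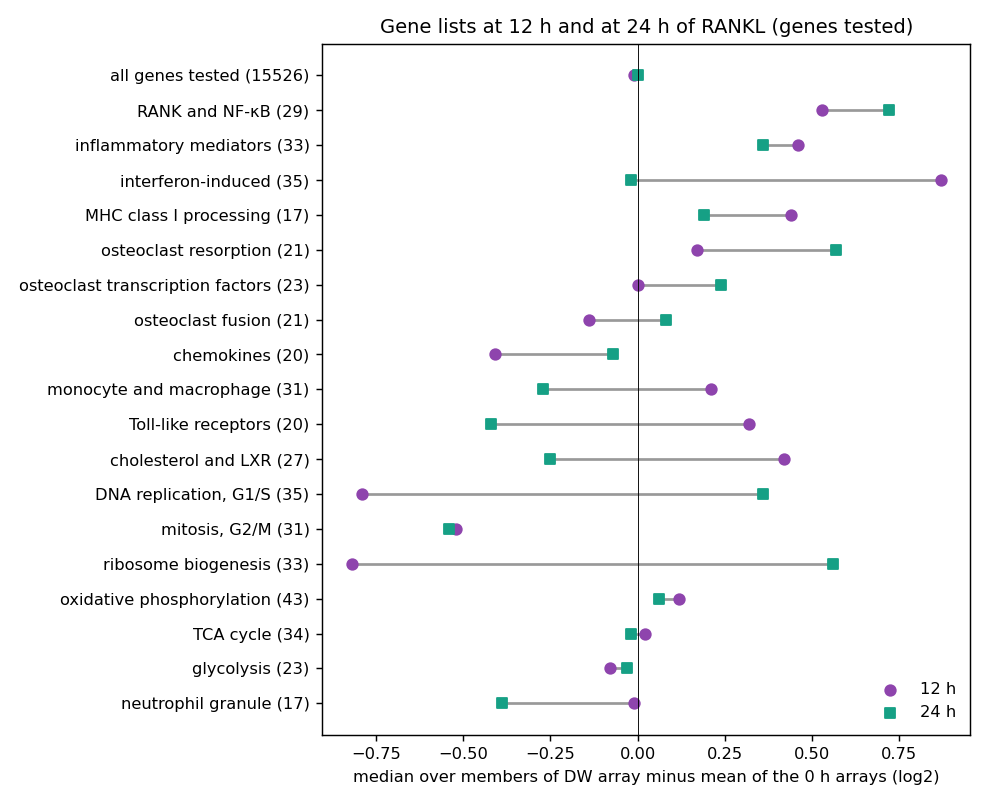
For each gene list (rows, with the number of genes tested), the median over its members of the 12 h array (circle) and the 24 h array (square) minus the mean of the 0 h arrays, in log2 units. Ribosome biogenesis and DNA replication lie below 0 at 12 h and above 0 at 24 h, interferon-induced genes lie at 0.87 at 12 h and -0.02 at 24 h, and RANK and NF-κB genes lie above 0 at both times.

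Of 30 immediate early and ERK feedback genes, 17 were higher at 24 h than at 12 h, near the share over all genes (7721 of 15526). At least 2-fold higher were 9 of the 30 and at least 2-fold lower 2, against 625 and 416 of all genes. Dusp6, an ERK phosphatase, stood at 6.92 at 12 h and 8.71 at 24 h, against 10.94 and 10.98 at 0 h. Spred2, another inhibitor of the pathway, stood at 5.05 and 7.90, against 8.0 and 7.95, so the 24 h array lay near the 0 h arrays and the 12 h array below them. Etv5, an ETS transcription factor, stood at 5.51 and 7.87, against 9.10 and 9.13. Plau, the urokinase plasminogen activator, stood at 7.12 and 10.26, against 11.25 and 11.17. The survival genes Bcl2 and Bcl2l1 stood at 5.40 and 5.49 at 12 h and at 7.24 and 7.09 at 24 h, against 7.98 to 8.37 at 0 h. They do not stand for the BCL2 family: 6 of its 14 genes were higher at 24 h than at 12 h. In that list 2 genes were at least 2-fold higher at 24 h than at 12 h and 2 lower, with a median difference of -0.15. At 12 h, 3 were at least 2-fold above 0 h and 2 below. Fos, a subunit of AP-1, stood at 7.23 at 12 h and 9.95 at 24 h, against 6.98 and 7.01.

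Other genes stood high at 12 h. Klhl24, a ubiquitin ligase adaptor, stood at 9.70 at 12 h and 6.30 at 24 h, against 7.04 and 7.17 at 0 h. Trp53inp1, a stress-induced autophagy factor, stood at 8.46 and 5.71, against 6.37 and 6.38. Ccng2, a cyclin linked to cell cycle arrest, stood at 8.05 and 5.57, against 6.18 and 6.14. Cxcr4, the receptor of CXCL12, stood at 9.72 and 7.04, against 7.40 and 7.46. Slc40a1, the iron exporter ferroportin, was unlike these, at 9.45 at 12 h and 5.86 at 24 h, against 9.21 and 9.32, so it was the 24 h array that stood apart. Of 35 interferon-induced genes, 16 were at least 2-fold lower at 24 h than at 12 h and 0 higher, and the medians over 0 h were 0.87 and -0.02. Gbp3, an interferon-induced GTPase, stood at 7.08 and 5.37, against 5.46 and 5.27. Ifi205 was the 1 gene of that list that passed, at 8.78 and 8.31, against 6.37 and 6.34. Of 27 genes of cholesterol synthesis and LXR, 11 were at least 2-fold lower at 24 h than at 12 h and 1 at least 2-fold higher.

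The same contrast was present in the αKG arrays of the same times. Of the 625 genes at least 2-fold higher at 24 h than at 12 h, 356 were so in the αKG arrays (57.0% of these, 81.1% of the 439 in the αKG arrays), and of the 416 lower genes, 244 were (58.7%, and 76.7% of 318). Myc stood at 6.32 at 12 h and 10.30 at 24 h with αKG. Part of these genes also differed between the single arrays of the later times: 276 of the 625 (44.2%, and 37.8% of 730) were at least 2-fold higher at 48 h than at 72 h. Of the 416, 169 (40.6%, and 38.9% of 435) were at least 2-fold lower at 48 h than at 72 h. Myc stood at 9.37 at 48 h and 7.30 at 72 h, and Klhl24 at 8.34 and 10.24.

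**Figure D5:**
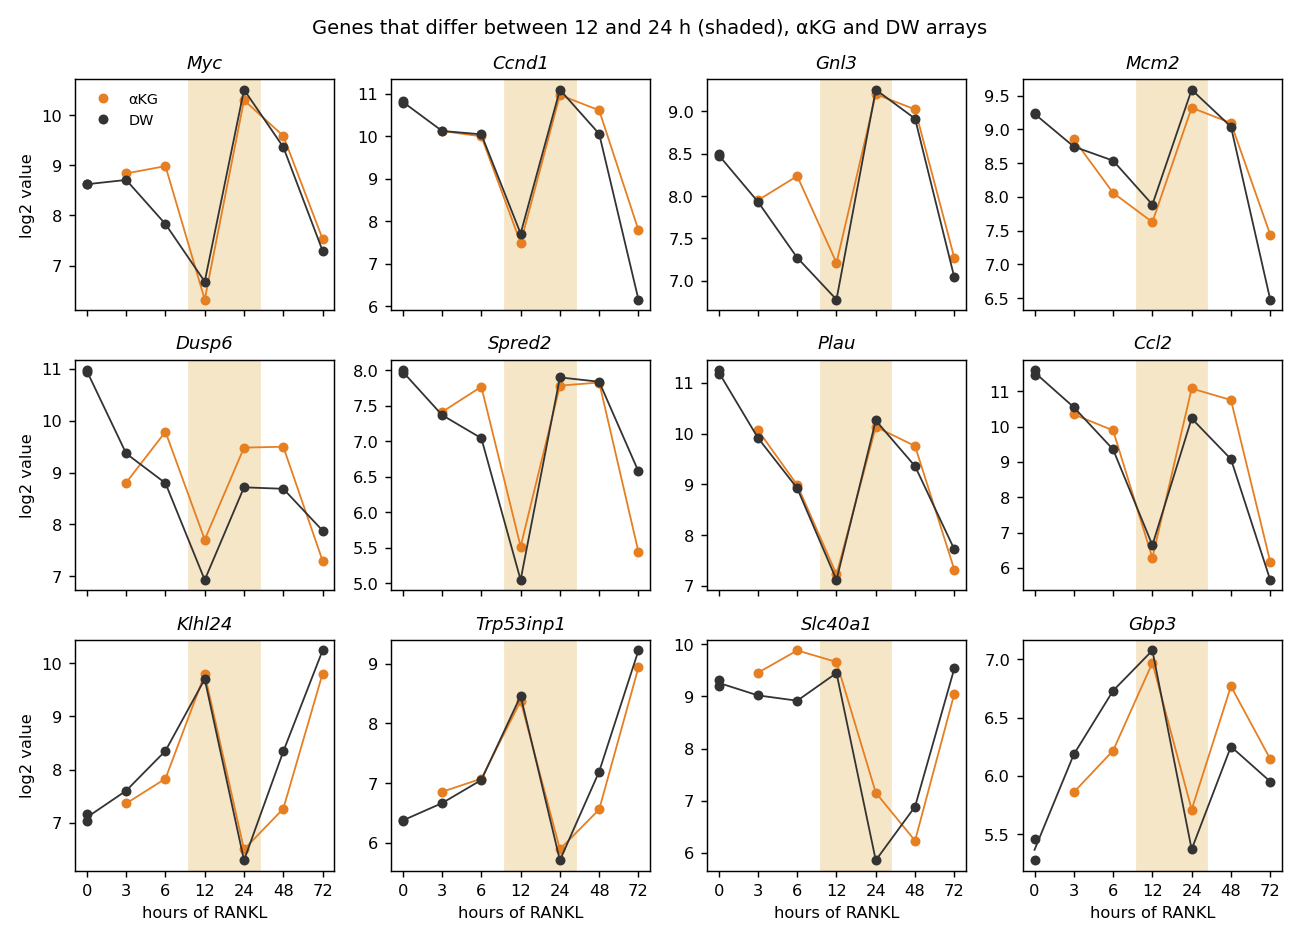
Log2 values (y axis) of 12 genes by hours of RANKL (x axis, evenly spaced) in the αKG arrays (orange) and the DW arrays (black), with both 0 h DW arrays drawn. In the DW arrays the first 8 genes have their 2 lowest values at 12 and 72 h, and Klhl24 and Trp53inp1 have their 2 highest there.

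Of the 70 higher genes, 46 stood lower with αKG than with DW at both 12 and 24 h and 8 higher at both, and of the 51 lower genes 3 stood lower and 31 higher. Over all 15526 genes, 4469 stood lower at both times and 4485 higher. The 70 and 51 genes were chosen on these DW arrays, which favours such a tally, so it is a description without a test. Of these genes, Mmp14, Saa3 and Vcam1 were at least 2-fold lower with αKG at both times, and Slc39a4, a zinc transporter, was at least 2-fold higher. Over all genes, 8 were at least 2-fold lower at both times and 12 higher. Mmp14 stood at 7.23 and 6.95 with αKG, against 8.48 and 8.98 with DW, and Vcam1 at 6.36 and 5.69, against 7.72 and 7.13. Slc39a4 stood at 8.05 and 7.25 with αKG, against 6.75 and 6.14 with DW, and Hmox1 at 10.77 and 10.99, against 9.89 and 10.03. Besides Padi4 of the neutrophil list and Cd34 and Stat4 of the progenitor list, markers of other cells did not pass against 0 h by limma: 0 of 5 B cell, 0 of 4 T and NK cell, 0 of 10 dendritic cell, 0 of 3 mast cell, 0 of 7 megakaryocyte, 0 of 2 erythroid and 0 of 10 stromal genes tested, with 1 B cell, 1 dendritic cell, 2 megakaryocyte and 2 stromal genes at an unadjusted p under 0.05. Over all 15526 genes, 1389 had an unadjusted limma p under 0.05 against 0 h. The 10 stromal genes averaged 5.31 and 5.46 at 12 and 24 h, against 5.47 and 5.36 at 0 h.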

How the data were processed

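Whole-transcript arrays were hybridised with biotin-labelled sense cDNA, per the labels' protocols. The deposited values range like log2 expression values, with near-equal medians on all arrays; for the normalization, background correction, summarisation and genome build the answer is: not given in the sources used here. Of 33793 features, 23521 carry 1 gene symbol in the platform annotation, 1814 several and 8458 none; only the first kind was used, 1 feature for each of 22180 genes, that with the highest mean over the 16 arrays. The lowest 30% of genes by that mean (under 4.34) were left out, which left 15526. limma 3.58.1 in R 4.3.3 (lmFit, eBayes with an intensity trend) was fitted to 16 arrays in 8 groups of 2, with 8 residual degrees of freedom, so the number of arrays limits the precision; p-values are two-sided and adjusted by Benjamini-Hochberg across the 15526 genes (threshold 0.05), and ± gives the standard error. The procedure was tested on simulated data. The contrasts set 12 and 24 h against 0 h, 3 and 6 h, and 48 and 72 h. Of 1010 gene list members in 42 lists, 933 have a feature. Genes were named if they passed against 0 h, had one of the 4 smallest p of a list, were among the 10 most changed each way in another contrast, or belonged to a set of osteoclast and macrophage genes; genes described for a difference between 12 and 24 h, with other members named without passing, were chosen after their values were seen. The members and lists were chosen with earlier results of these data known. Probe sharing among close relatives (the Tmem176, Ly6, Gstt, Cd300 and MHC class I genes) is possible. Alternatives were other filters, scalings, variance models, feature rules, sets of arrays and leaving out each array. Python 3.11.15 was used for tables, promoter searches and figures.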

Additional observations from a re-analysis of the deposited data

Results flagged for a closer look

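For 19 of the 121 genes that passed between 12 to 24 h and 0 h, the level at 12 to 24 h also differed from that at 48 to 72 h in the limma fit. Over all 15526 genes, 220 (1.42%) did. This contrast equals the difference between the phases in the change over 0 h. The 121 genes were chosen on the same 12 and 24 h arrays, which favours such differences, so the count is a description and not independent support. The difference of 12 to 24 h minus 48 to 72 h was 2.71 for Ly6i, 2.39 for Ifi205, 2.27 for Slamf8, 2.24 for Slamf6, 2.24 for Saa3, 2.20 for Ccl5, 1.83 for Marco, 1.65 for Cfb, 1.29 for Cxcl16, 1.05 for Zmynd15, 1.03 for Slco3a1, 0.87 for Adam17, 0.81 for Fam83f and 0.58 for Dtnb, all of which were higher than at 0 h. For Grk3, also higher than at 0 h, it was -1.81, so the level was higher still at 48 to 72 h. For 4 genes that fell against 0 h it was 1.00 (Cd93), 0.98 (B430306N03Rik), 0.72 (Itga6) and 0.66 (Rhoh), so they were lower still at 48 to 72 h. Of 5000 tested features with several gene symbols or none, which no comparison used, 8 passed against 0 h, 5 higher and 3 lower, and 363 had an unadjusted p under 0.05.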

How the results depend on the processing

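With 2 arrays in each group, the counts depended on the arrays in the fit more than on the filter, scaling, feature rule or variance model. The 121 genes against 0 h became 0 when only the 4 arrays were fitted, 21 with the 8 DW arrays and 4 to 67 when 1 array was left out. The 220 genes against 48 to 72 h became 0 in the fit of 4 arrays (732 at an unadjusted p under 0.05), 25 with the 8 DW arrays and 50 to 1024 when 1 array was left out. The fits with fewer arrays hold fewer residual degrees of freedom; the cause of the other changes was not tested. Against 3 to 6 h the count was 0 under every alternative run, with 384 to 1347 genes at an unadjusted p under 0.05. The other alternatives gave 96 to 134 and 188 to 245 genes. None of the 121 genes changed sign under any alternative run. No paired analysis was possible because only the 0 h arrays carry a replicate number. Array brightness sets the limit for dim genes: genes under 4.34 were not tested.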
